A study of Mus musculus with 12 samples.

Results

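The transcripts described here are those of the metallothioneins Mt1 (ENSMUST00000034215.8), Mt2 (ENSMUST00000034214.8) and Mt3 (ENSMUST00000034211.10) in mouse dorsal root ganglia with and without sciatic nerve injury. They were chosen by transcript ID, with 1 ID per gene, and 3 of 3 were found among the 101744 transcripts of the table, 35917 of them with any count. Their choice rested on values of these data, since Mt1 was picked for being abundant in the input and counted in the immunoprecipitate after injury alone. Every value below is therefore a description, with no test.

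Ganglia came from mice of genotype RPL22HA+/+;Advillin-Cre+. Advillin-Cre is active in peripheral sensory neurons, where it switches on a ribosomal protein carrying an HA tag (RiboTag), so anti-HA immunoprecipitation (IP) recovers RNA on ribosomes of these neurons, while ribosomes of other cells in the ganglion carry no tag. The 4 groups of 3 samples were IP injured and IP uninjured, then input injured and input uninjured, all of the same genotype, so the uninjured ganglia carried the tag and the Cre as well. The sources used here do not give the age of the mice, the time after injury or any pooling of animals, and the extraction text given for the input is that of the immunoprecipitation, although its RNA is labelled total RNA. The defining markers of neurons, glia and other cells of the ganglion were not checked, because the transcript IDs are not paired with gene names in the files or tables used here.

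Metallothioneins are small, cysteine-rich proteins that bind zinc and copper and buffer both metals in the cell. Mt1 and Mt2 are made in most tissues and are induced by zinc, cadmium, glucocorticoids, inflammatory cytokines and oxidative stress, and in the nervous system they are known mainly from glia. The zinc-sensing transcription factor Mtf1 drives them through short metal response elements in their promoters. Mt3 is found mainly in the nervous system, was first described as a growth inhibitory factor of neurons, and responds little to metals.

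The 3 genes lie close together on mouse chromosome 8 and on one strand. The RefSeq promoter sequences (GRCm38.p6) are shown because Mt1 and Mt2 were the pair with higher counts after injury in the IP. Each line holds the 250 bases before the annotated start, 5′ to 3′ on the plus strand, at chr8:94178839-94179088 for Mt1, chr8:94172368-94172617 for Mt2 and chr8:94152357-94152606 for Mt3, with capitals at matches to the metal response element core on either strand.
Mt1: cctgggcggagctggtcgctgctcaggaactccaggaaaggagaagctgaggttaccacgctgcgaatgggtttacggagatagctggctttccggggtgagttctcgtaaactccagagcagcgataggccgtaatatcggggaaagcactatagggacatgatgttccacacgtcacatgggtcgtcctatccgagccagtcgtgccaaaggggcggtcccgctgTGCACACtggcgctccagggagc
Mt2: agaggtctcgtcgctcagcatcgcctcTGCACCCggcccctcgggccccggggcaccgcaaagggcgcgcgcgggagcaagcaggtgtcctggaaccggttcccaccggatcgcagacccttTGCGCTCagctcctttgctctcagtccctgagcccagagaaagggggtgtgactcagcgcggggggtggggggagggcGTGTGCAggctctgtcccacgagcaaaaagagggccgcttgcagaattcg
Mt3: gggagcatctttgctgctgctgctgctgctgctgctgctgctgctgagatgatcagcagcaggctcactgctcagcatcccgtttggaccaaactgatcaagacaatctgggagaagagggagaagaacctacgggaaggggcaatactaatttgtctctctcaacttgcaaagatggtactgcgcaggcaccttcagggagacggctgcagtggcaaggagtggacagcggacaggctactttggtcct

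The letters searched were TGCACNC and TGCGCNC, on both strands, in a window of 300 bases that also takes in the first 50 bases after the start. The Mt1 window held 3 matches, of which 1 is in capitals above and the other two lie at bases 3 to 9 (TGCACTC) and 21 to 27 (TGCGCTC) after the start. The Mt2 window held 4 matches, with 1 of them at bases 5 to 11 after the start (GTGCGCA, the reverse strand). The Mt3 window held 1 match, at bases 28 to 34 after the start (TGCACAC), and none in the printed stretch. Of all 32851 promoter windows of this length, 25.7% held at least 1 match, 1.97% at least 3 and 0.517% at least 4. The antioxidant response element core TGACNNNGC, searched on both strands, was matched once in the Mt2 window, at positions -79 to -71 relative to the start, and in 12.4% of all windows. It was not matched in the Mt1 or Mt3 window, and the STAT core TTCNNNGAA was matched in none of the 3 and in 8.30% of all windows. None of these matches overlapped another. The metal response elements of Mt1 are usually drawn before its start, and here 2 of the 3 matches lie after it. The start in this table may thus lie upstream of the one in use, and part of the usual proximal promoter of Mt1 may fall outside the printed bases. Which start is used in the ganglion was not tested, so the positions and the count for Mt1 hold for this annotated start alone. These matches describe the letters of the windows and were not compared with binding data.

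The 3 samples of a group had totals whose range was 0.0374% to 0.449% of their mean and, for transcripts averaging 300 counts or more, a median spread of 0.945 to 1.41 times counting noise. In IP these were only 40 transcripts in injured and 41 in uninjured samples, and the members lay below that count. Over 9959 transcripts, an edgeR fit with the samples as replicates gave a common variation beyond counting noise of 35.6%. The labels list separate samples. From their totals and spread they were taken here as 3 portions of 1 sample, which was not tested, and their estimated counts were summed. The sums were 571897 counts in IP injured, 635927 in IP uninjured, 4753793 in input injured and 5055830 in input uninjured. The conditions are thus compared without replication, so the 95% intervals cover counting error only and leave out variation between animals. PCR copies of 1 molecule count separately where molecules carry no identifier, so the intervals may be too narrow even for counting error. The 3 samples of a group also show how little or how much each transcript scattered, so each sample's value is given. Levels are counts per 1000000 counts of a sample (CPM), and folds were taken after TMM scaling between groups. A transcript was called different where at least 1 of the groups reached 10 scaled CPM, the fold was at least 2, its counting interval excluded 1, and the samples of the groups compared did not overlap. Reads of Mt1 and Mt2, which are close paralogs, could be divided between them by the quantification, so their sum is given as well.

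In the IP, Mt1 and Mt2 were higher after injury and Mt3 differed little. Mt1 had 41, 61 and 60 counts in the injured IP samples, against 0, 0 and 0 counts in the uninjured IP samples. In levels this was 215, 320 and 315 CPM in injured IP, against 0 CPM in each uninjured IP sample. All 3 injured samples thus held Mt1 reads, and no uninjured sample held any. Summed, 162 counts in injured IP stood against 0 in uninjured IP, for which the exact 95% interval allows a level of up to 5.80 CPM. With the 0 replaced by a floor of 3 counts for the group, worth 4.72 CPM, Mt1 was 56.5-fold higher after injury. By the exact counting interval for 162 against 0 counts it was at least 45.4-fold higher. It had the highest ratio of the 8041 transcripts compared, which is the pattern it was chosen for.

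Mt2, the close paralog of Mt1, had 29, 36.9 and 31.0 counts in injured IP, against 3, 7 and 6 counts in uninjured IP. The levels were 152, 194 and 163 CPM in injured IP, against 14.1, 33.1 and 28.3 CPM in uninjured IP. The lowest injured sample was above the highest uninjured one. Summed, Mt2 was 6.34-fold higher in injured than in uninjured IP (95% counting interval 3.71 to 11.5), which ranked 254 of 8041 from the top. Mt1 and Mt2 together had 259 counts in injured IP and 16 in uninjured IP, 16.9-fold higher (10.2 to 30.1), a ratio that does not depend on how reads were divided between the pair.

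Mt3, the form typical of the nervous system, had 24, 27 and 29.99 counts in injured IP, against 24, 24 and 18 counts in uninjured IP. In levels, the injured IP samples held 126, 142 and 157 CPM and the uninjured IP samples 113, 113 and 84.9 CPM. The groups did not overlap, but the summed ratio was 1.28-fold with a counting interval of 0.916 to 1.80, which includes 1. Thus 2 of the 3 transcripts were called higher after injury in the IP, Mt1 and Mt2, while 22.4% of the 8041 transcripts compared were called in either direction and 11.8% were called higher. Since the choice of Mt1 used this contrast, nothing is read from that share. The median log2 ratio of all compared transcripts was -0.06, against 5.82 for Mt1 (against the floor), 2.66 for Mt2 and 0.36 for Mt3. With library totals in place of TMM the median was 0.15, and the 3 ratios were 5.91, 2.75 and 0.45. Leaving out any one of the uninjured IP samples lowered the log2 ratio of Mt1 to 5.25 to 5.26, since the floor of 3 counts is then set against fewer reads.

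**Figure D1:**
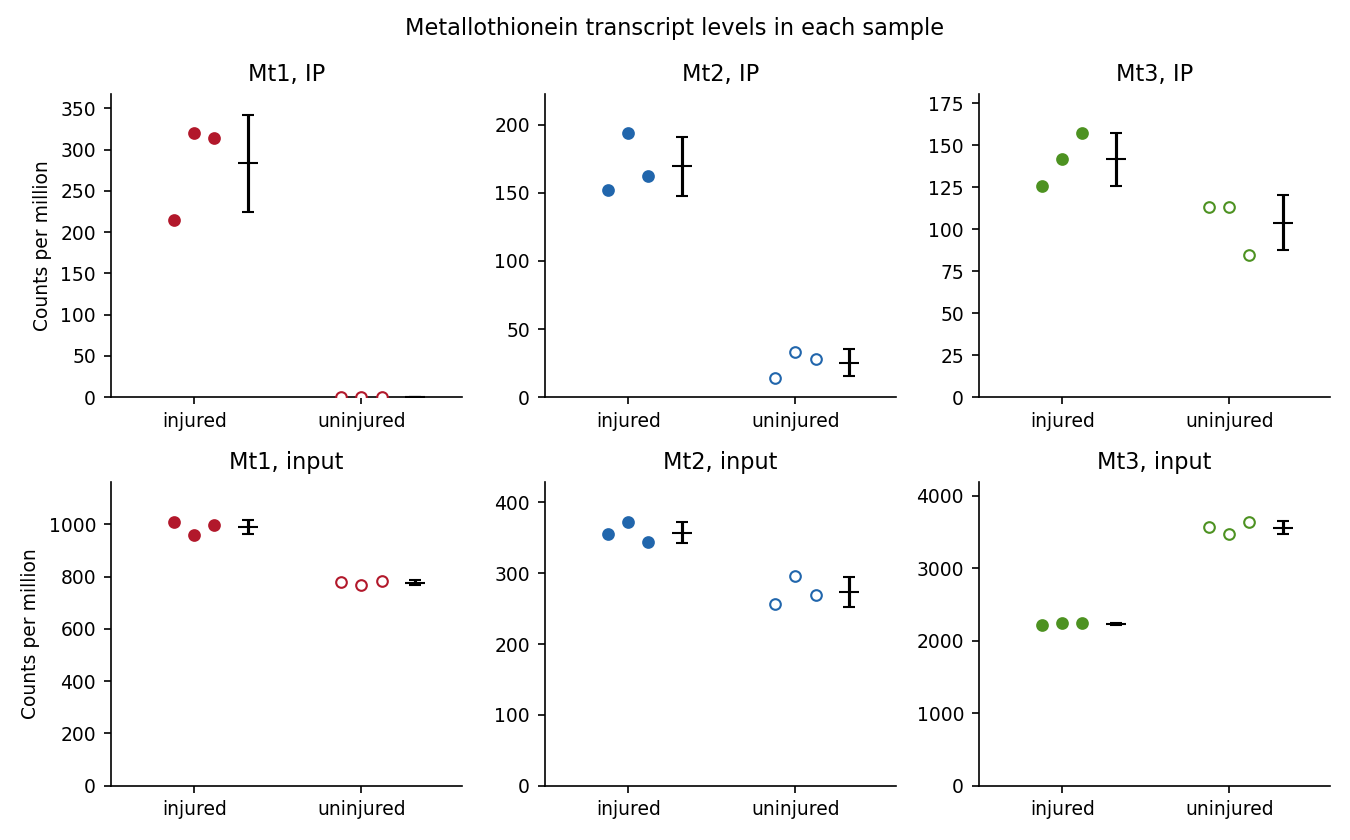
Levels in CPM of Mt1, Mt2 and Mt3 (columns) in IP (top) and input (bottom), with injured samples as filled points left of uninjured samples as open points; the bar beside each group is the mean and SD of its 3 samples, and each panel has its own scale from 0. Mt1 lay at 215 to 320 CPM in injured IP and at 0 CPM in uninjured IP, while Mt3 in the input lay at 2212 to 2243 CPM in injured and 3469 to 3643 CPM in uninjured samples.

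In the input Mt1 and Mt2 were slightly higher and Mt3 lower after injury, all by less than 2-fold. Mt1 had 1601, 1524 and 1581 counts in injured input, against 1314, 1294 and 1321 counts in uninjured input. This was 961 to 1011 CPM in injured input, against 768 to 784 CPM in uninjured input, with no overlap. The ratio was 1.31-fold (95% counting interval 1.26 to 1.37). Mt2 had 564, 591 and 544 counts in injured input, against 431, 499 and 453 counts in uninjured input. Its samples did not overlap either, with 343 to 373 CPM in injured and 256 to 296 CPM in uninjured input, and its ratio was 1.35-fold (1.25 to 1.45). The counting intervals of the Mt1 and Mt2 ratios overlapped.

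Mt3 had 3505, 3556 and 3546 counts in injured input, against 6006, 5846 and 6139 counts in uninjured input. It held 2212, 2243 and 2238 CPM in injured input, against 3563, 3469 and 3643 CPM in uninjured input. The injured samples lay close together and far below the uninjured ones. Mt3 was 1.55-fold lower in injured than in uninjured input (1.51 to 1.58), with a log2 ratio of -0.63 against a median of -0.12 over the 9139 transcripts compared. By abundance it ranked 87 in injured input and 40 in uninjured input, while Mt1 ranked 233 in injured and 281 in uninjured input and Mt2 ranked 509 in injured and 572 in uninjured input. Of the 3 transcripts 0 were called different by injury in the input, where 16.5% of transcripts were called. In RNA of a whole ganglion, fewer cells of a type and less RNA per cell cannot be told apart.

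Set against each other, the injury ratios in IP and input differed in size for Mt1 and Mt2 and lay on opposite sides of 1 for Mt3, whose interval in IP included 1. The log2 ratio of Mt2 was higher in IP than in input by 2.23 (95% counting interval 1.46 to 3.00, normal approximation), which ranked 32 from the top of 4928 transcripts that had 10 counts or more in each of the 4 groups. For Mt1, which was outside these 4928 because of its 0 counts in uninjured IP, the difference was 5.42 against the floor. For Mt3 it was 0.99 (0.52 to 1.46), just under the size of 1 at which a difference was called, and 1.12 with library totals, which passes it. With 1 sample left out it ranged from 0.84 to 1.09, and it passed 1 without IP injured replicate 1, without IP uninjured replicate 1 or 2, and without any one of the input injured samples. Each omission also renewed the TMM factors and the set of transcripts behind them. That set held 9959 transcripts with all samples, 5057 without input injured replicate 1 and 13384 without IP injured replicate 1. Shifts from the omitted sample and from the renewed factors were not separated. A call here needed a log2 difference of at least 1 and an interval excluding 0, with no rule on CPM or on overlap of samples. Of the 4928 transcripts 20.3% were called in either direction and 10.9% were called higher in IP, so of the compared members 1 of 2, Mt2, was called. The higher ones made up 54.0% of those called, 65.6% with library totals, and 46.2%, 46.8% and 45.8% without IP uninjured replicate 1, 2 or 3.

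**Figure D2:**
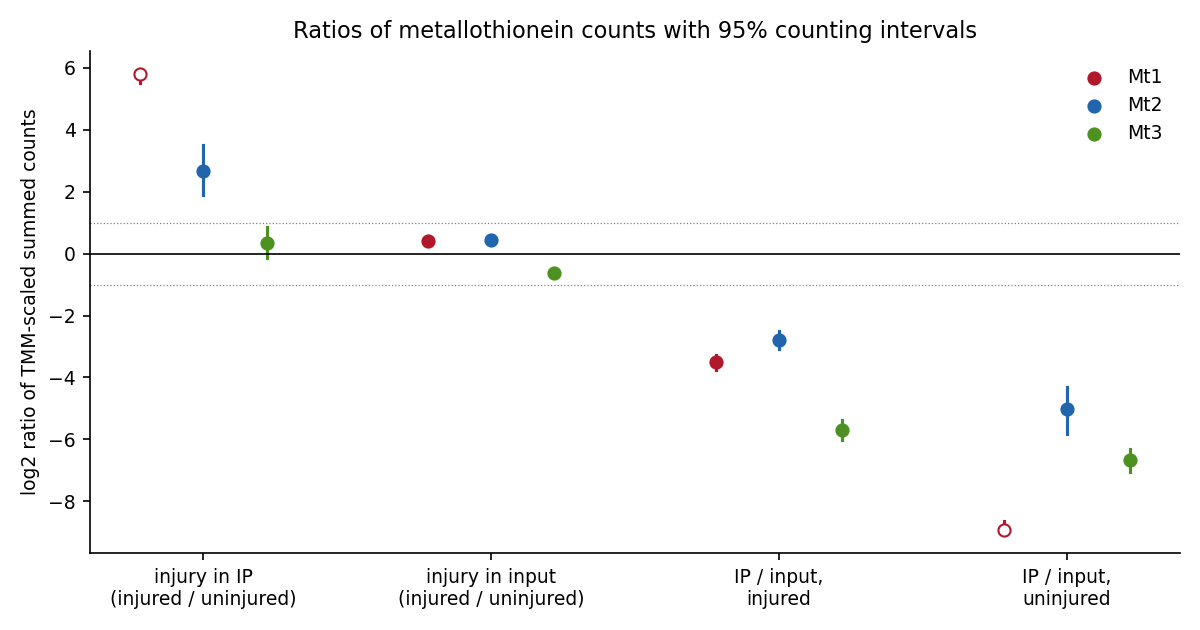
Log2 ratios of TMM-scaled summed counts for Mt1, Mt2 and Mt3 in 4 comparisons, with 95% counting intervals as vertical lines; open points are ratios against a floor of 3 counts, whose line reaches to the end of the interval that the counts can give, and dotted lines mark a 2-fold difference. Mt1 stood at 5.82 for injury in IP and at 0.39 for injury in input, and all 6 ratios of IP to input lay below -2.

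The comparison of IP with input sets the scaled level of each RNA in IP against that in input, and does not measure how much RNA was recovered. All 3 transcripts were lower in IP than in input in both conditions. In injured ganglia, Mt1 made up 283 CPM of the IP sum and 990 CPM of the input sum. Mt1 was 11.4-fold lower in IP there after TMM scaling (95% counting interval 9.77 to 13.5), Mt2 6.89-fold lower (5.62 to 8.55) and Mt3 51.5-fold lower (41.4 to 64.96). The call covered 3 of 3 transcripts, where 39.0% of the 9718 transcripts compared were called lower and 55.9% were called in either direction. Mt3 thus had the lowest ratio of IP to input of the 3 in injured ganglia and ranked 327 from the bottom, with Mt1 at rank 1456 and Mt2 at rank 2134. These ranks do not account for abundance in the input. For the 233 transcripts with at least as many counts in injured input as Mt1, the median in injured IP was 142 counts, and Mt1 had 162. For the 509 at least as abundant as Mt2 the median was 96, and Mt2 had 97. For the 87 at least as abundant as Mt3 the median was 230, and Mt3 had 81. Mt1 and Mt2 thus lay near the middle of transcripts this abundant in injured input, and Mt3 lay below it.

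In uninjured ganglia the ratio of IP to input was lower still for all 3. Mt1, with 0 counts in uninjured IP and 3929 in uninjured input, was 491-fold lower in IP against the floor, and at least 399-fold lower by the exact counting interval. Leaving out an uninjured IP sample moved this log2 ratio of -8.94 to -8.34, -8.34 and -8.32 for replicates 1, 2 and 3, since the same floor is set against fewer reads. Mt2 was 32.4-fold lower in uninjured IP than in uninjured input (19.9 to 56.9), and Mt3 102-fold lower (80.3 to 132). Here 3 of 3 transcripts were called lower, where 39.8% of the 10236 transcripts compared were called lower and 59.3% in either direction. From the bottom, Mt1 ranked 20, Mt3 226 and Mt2 771. The sum of Mt1 and Mt2 was 9.73-fold lower in IP than in input in injured ganglia (8.60 to 11.1) and 125-fold lower in uninjured ganglia (76.6 to 218).

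The size of these ratios depended on the scaling, though their direction did not. With library totals alone, Mt1 was 3.49-fold, Mt2 2.11-fold and Mt3 15.8-fold lower in IP than in input in injured ganglia. In uninjured ganglia the same scaling gave 165-fold for Mt1 against the floor (at least 134-fold by the exact interval), 10.9-fold for Mt2 and 34.3-fold for Mt3. All 6 ratios kept their call. The median log2 ratio of all compared transcripts moved from -0.64 with TMM to 1.79 with totals in injured ganglia and from -0.59 to 1.67 in uninjured ganglia. Transcripts higher in IP made up 30.3% and 33.0% of those called in injured and uninjured ganglia with TMM, and 73.7% and 68.4% with totals.

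**Figure D3:**
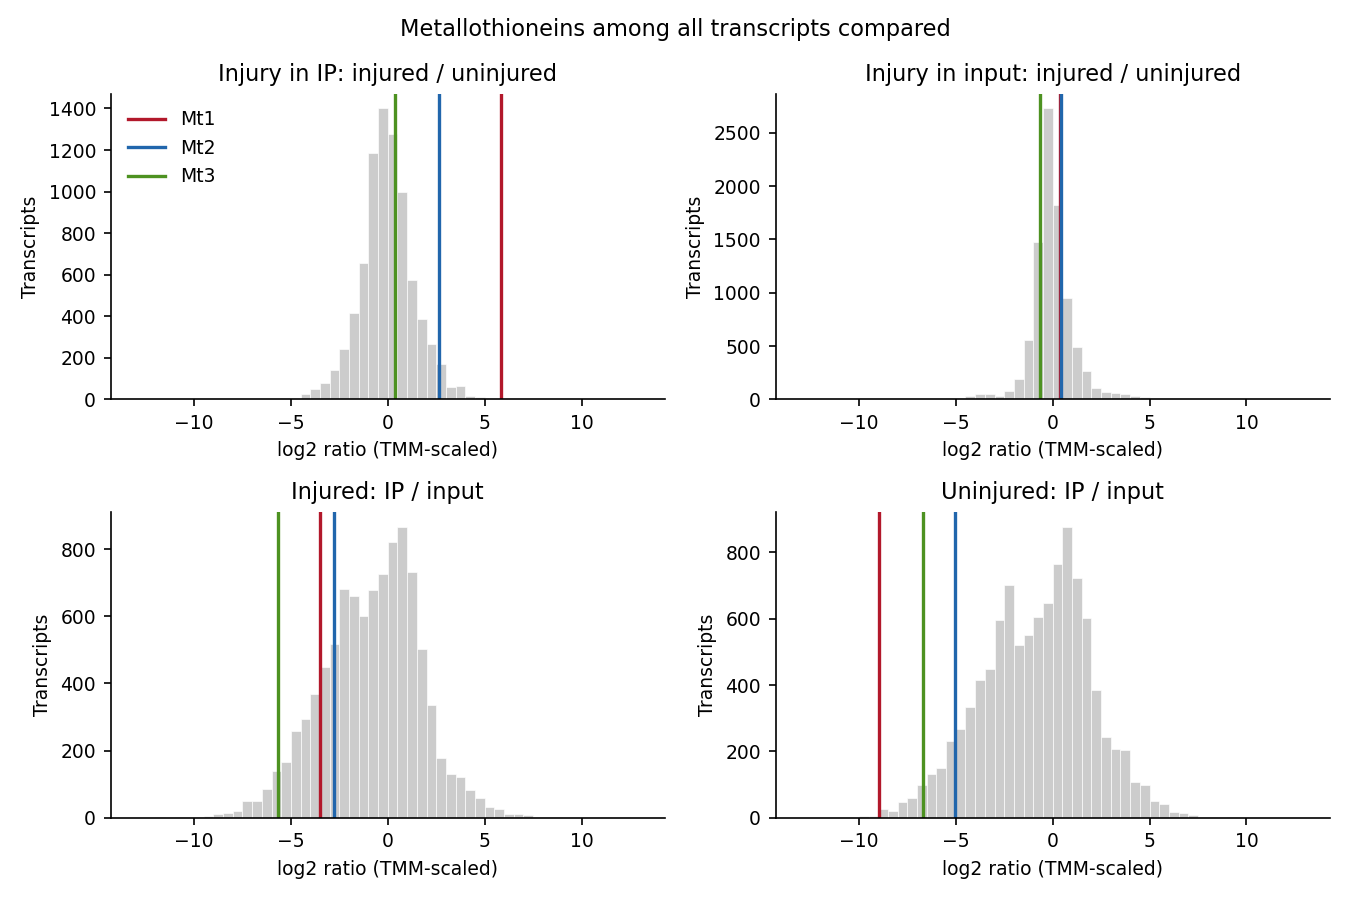
Numbers of transcripts by log2 ratio (bins of 0.5) for all transcripts compared in each of 4 comparisons, with vertical lines at Mt1, Mt2 and Mt3; the lines of Mt1 (0.39) and Mt2 (0.43) nearly coincide for injury in input, and Mt1 is set against a floor of 3 counts for injury in IP and for uninjured IP against input. Mt1 lay at the upper end for injury in IP and in the lower tail for uninjured IP against input, and Mt3 lay in the lower tail of both ratios of IP to input.

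The IP counts of the 3 transcripts were also set beside their abundance in the input. At its share of uninjured input by library totals, without TMM scaling, Mt1 would have given 494 counts in uninjured IP, Mt2 174 and Mt3 2263, against 0, 16 and 66 found. Of the 281 transcripts with at least as many counts in uninjured input as Mt1, itself included, 6 had 0 counts in uninjured IP, and the median was 78 counts. For the 572 at least as abundant as Mt2 the median was 48 counts, and 151 had no more than Mt2. For the 40 at least as abundant as Mt3 it was 169.5 counts, and 8 had no more than Mt3. Each median was itself below the count given by the member's input share, so a shortfall was common among transcripts this abundant. Among 46 transcripts with 0 counts in uninjured IP and at least 1000 in uninjured input, 9 had at least 10 counts in injured IP. Mt1 was the 1 transcript of these 46 with at least 100, the next highest had 88 and the median was 2.5. Since Mt1 was chosen for this same pattern, its place among the 281 and the 46 restates the choice and nothing is read from it. Of the 87 transcripts with at least as many counts in injured input as Mt3, 10 had as few counts as Mt3 or fewer in injured IP.

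The make-up of the metallothionein counts differed between IP and input. Lengths of the transcripts are not in the table, so these are shares of read counts and not of molecules per length. In injured IP, Mt1 made up 47.6% of the 340 counts of the 3 transcripts (exact 95% interval 42.2% to 53.1%), Mt2 28.5% (23.8% to 33.6%) and Mt3 23.8% (19.4% to 28.7%). In uninjured IP, Mt3 made up 80.5% (70.3% to 88.4%) of 82 counts, Mt2 19.5% (11.6% to 29.7%) and Mt1 0%, which allows up to 4.40%. In input, Mt3 made up 62.4% of 17012 counts in injured and 77.2% of 23304 counts in uninjured ganglia, Mt1 27.7% in injured and 16.9% in uninjured ganglia, and Mt2 9.99% in injured and 5.94% in uninjured ganglia. Mt3 thus led in every group except injured IP, where its share was the smallest of the 3. Its order against Mt2 there was not resolved, with 0.835 counts of Mt3 per count of Mt2 (95% counting interval 0.614 to 1.13).

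The count of Mt1 per count of Mt2 was steady in the input and not in the IP. It was 2.77 in injured input (95% counting interval 2.62 to 2.93) and 2.84 in uninjured input (2.67 to 3.02). In injured IP it was 1.67 (1.29 to 2.17), and in uninjured IP 0 counts of Mt1 stood against 16 of Mt2, which allows a ratio of up to 0.259. The ratio of uninjured input would have given 45.4 counts of Mt1 beside these 16, and the ratio of injured IP 26.7. Mt1 was chosen for its 0 counts in uninjured IP, so this gap restates the choice and nothing is read from it. Whether the RNA counted in the IP came from tagged sensory neurons or from other cells of the ganglion, and whether reads of Mt1 were assigned elsewhere in uninjured IP, was not tested.

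**Figure D4:**
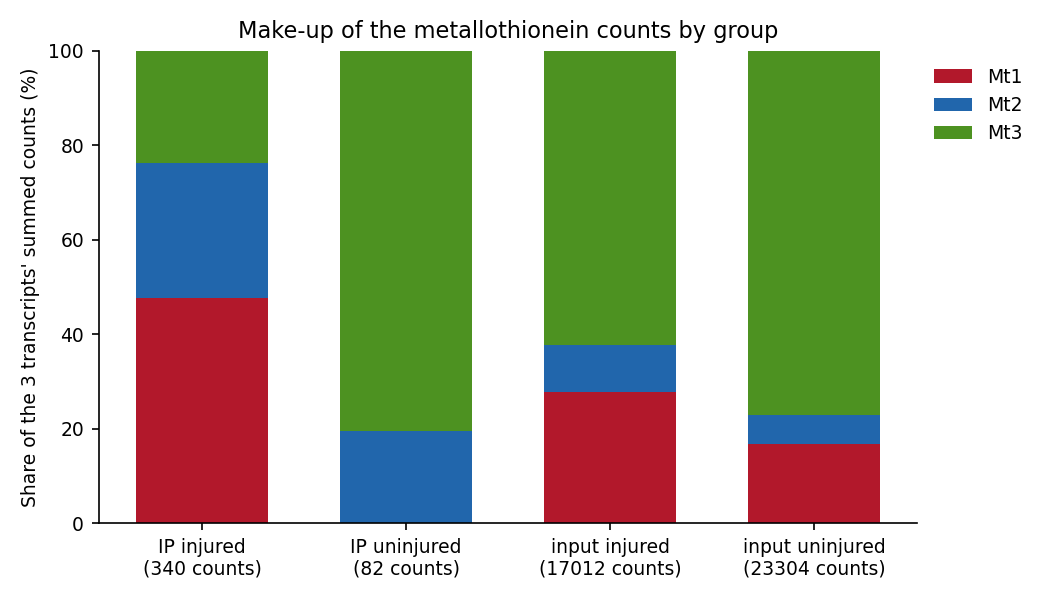
Share (%) of Mt1, Mt2 and Mt3 in the summed counts of the 3 transcripts for each group, with the number of counts under each bar. Mt3 held 62.4% to 80.5% in uninjured IP and both input groups, and 23.8% in injured IP, where Mt1 held 47.6%.

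The transcripts whose pattern was most like each member were found by Pearson's r of log2(CPM + 1) over the 12 samples, among 6939 transcripts with at least 100 summed counts. These 12 points share their libraries and depths and form 4 groups, so r is a description. Nearest to Mt1 were ENSMUST00000173480.8 (r of 0.991) and ENSMUST00000079121.4 (0.988). The first had 5 counts in injured IP and 0 in uninjured IP, and the second 15 in injured IP and 0 in uninjured IP, so both shared its 0 counts in uninjured IP at much lower levels. In input the first had 84 counts in injured and 61 in uninjured samples. The second had 205 in injured and 384 in uninjured input, lower after injury where Mt1 was higher. Mt2 came 9th for Mt1 (0.980), and Mt1 came 3rd for Mt2. Ahead of it for Mt2 were ENSMUST00000108721.9 (0.984) and ENSMUST00000107563.2 (0.983), and the second of these had 207 counts in injured IP and 44 in uninjured IP. Mt3 was less like the pair, with r of 0.745 to Mt1 and 0.769 to Mt2. Nearest to Mt3 were ENSMUST00000028938.7 (0.998) and ENSMUST00000015236.4 (0.997). The first had 6343 counts in injured input and 10168 in uninjured input, with 86 counts in injured IP and 89 in uninjured IP.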

How the data were processed

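Per the labels' protocols, the 12 libraries came from nanopore sequencing with a cDNA-PCR barcoding kit. The values deposited by the authors are estimated counts for each transcript, with 3.00% to 11.4% of a sample's values not whole. Minimap2, Salmon and the builds GRCm39 and mm39 appear in the submitters' processing notes, and their roles, versions and settings are not stated there.

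The 3 estimated counts of a group were summed and rounded. TMM factors (edgeR 4.0.16) came from the 9959 transcripts that passed filterByExpr. With a sample left out, the filter and the factors were renewed. Ratios have exact conditional (Clopper-Pearson) intervals (scipy 1.17.1), and 0 counts were set to a floor of 3. Alternatives were library totals, DESeq2 1.42.0 size factors, a floor of 1, samples left out, and edgeR and DESeq2 fits with the samples as replicates, called at an adjusted p under 0.05 and a fold of at least 2. The steps were tested on simulated data with counting noise alone, which cannot show how they fare with further variation between samples.

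Members, lists and rules were chosen with earlier results of these data known. Named transcripts were the 3 members and, for each, the 2 with the highest r. Planned lists of other metal-handling genes and cell type markers were not analysed here, since the IDs had no gene names. The replicate numbers were not taken as pairs. Deviations of same-numbered input samples from their group means correlated between conditions at -0.0069 to 0.116 across 1900 transcripts with a mean of at least 10 counts in each group, and 0.168 to 0.203 across 498 with at least 30, so the result hung on this choice. The sum of Mt1 and Mt2 and the difference of injury effects were added after the data were seen. Promoters came from RefSeq (GRCm38.p6).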

Additional observations from a re-analysis of the deposited data

Results flagged for a closer look

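Mt3 was singled out because, in CPM, every injured sample lay above the uninjured ones in IP and below them in input. In IP the lowest injured sample and the highest uninjured samples each had 24 counts. The gap between them in CPM thus came from their library totals, 190702 against 212449 and 211497. The counting interval of the summed IP ratio, 0.916 to 1.80, included 1. How many of all transcripts were opposed in this way was not counted. The log2 injury ratio of Mt3 was higher in IP than in input by 0.99, with 0.36 in IP and -0.63 in input. The difference was not tested across animals.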

How the results depend on the processing

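No member changed direction under any alternative. DESeq2 size factors moved no value outside its counting interval. A floor of 1 count bears on Mt1 alone and by construction makes its floored ratios larger, with log2 values of 7.40 for injury in IP, -10.53 for uninjured IP against input and 7.01 for the difference of injury effects. Library totals moved the log2 ratio of Mt3 for injury in input to -0.67, and those of IP to input to -1.81 (Mt1), -1.08 (Mt2) and -3.98 (Mt3) in injured and -7.36, -3.44 and -5.10 in uninjured ganglia. Fits that took the samples as replicates gave Mt3 -0.59 for injury in input (DESeq2). For the difference of injury effects of Mt1 they gave 9.23 (edgeR), 9.22 (edgeR with the replicate block) and 7.89 (DESeq2), values that depend on how the fit treats 0 counts. With 1 sample left out, log2 ratios ranged from 5.25 to 5.94 for Mt1 and injury in IP, from 0.29 to 0.42 (Mt1), 0.28 to 0.52 (Mt2) and -0.75 to -0.60 (Mt3) for injury in input, and from -8.95 to -8.32 for Mt1 in uninjured IP against input. These ranges include the effect of the renewed TMM factors.

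Of all transcripts, 1798 were called for injury in IP, against 1004 in edgeR, 749 with the replicate block and 1029 in DESeq2. For injury in input 1510 were called, against 604, 420 and 878, and 2363 with no filter on low values. For the difference of injury effects 999 were called, against 368, 251 and 543. The causes of these differences between fits were not tested. The other counts lay within 1.5 times those reported. The low IP depth, where 3 counts are worth 4.72 to 5.25 CPM, limits what can be said of Mt1 in uninjured IP.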
